A study of Homo sapiens with 5 samples.

Results

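Transcript levels of 9 genes of ion and water transport in the pancreatic duct, CFTR, ANO1, SCNN1A, KCNN4, CA2, SLC4A4, ATP1B1, AQP1 and AQP3, were examined in 5 human pancreatic cell lines. The genes were taken by name for their place in duct transport, with earlier results of these data known. All 25 probe sets that carry 1 of these symbols alone were read, out of 41091 such probe sets for 19775 genes on the array. These lines (PANC1, SU86.86, HPAF1, L3.6 and HPDE) were each profiled once on a 1-colour Affymetrix array, so that no level of a line has an error of its own. PANC1, HPAF1, SU86.86 and L3.6 are carcinoma lines. HPDE is known as an immortalised line of pancreatic duct epithelium, although the source label calls all 5 cancer lines. The labels list no treatment, time point or genetic change, and each line was grown alone in culture. They name no aim other than a profile of each line, and the comparisons given here set a line beside the remaining 4, or a carcinoma line beside HPDE.

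The pancreatic duct secretes a fluid rich in bicarbonate that carries digestive enzymes to the gut. Chloride channels of the luminal membrane work together with chloride-bicarbonate exchangers, carbonic anhydrase and a basolateral sodium-bicarbonate cotransporter supply the bicarbonate, and potassium channels and the sodium pump hold the membrane potential that drives the flow. Water follows through aquaporins. Sodium uptake through the epithelial sodium channel, which other ducts use to change their fluid, is a further route of ion transport in epithelia.

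Values are given as the deposited intensity in array units, or as a log2 level, which is log2 of the intensity plus 71.1. Differences are log2 differences on that scale and understate the change of dim genes. A probe set was taken to reach the level filter where at least 1 line lay at or above 140, the median intensity over all probe sets. By this measure 14 of the 25 probe sets and 8 of the 9 genes reached it, and AQP1 did not. Of all 19775 genes, 14896 reached the filter. CFTR reached it by 1 line only. The array medians lay between 137 and 143. On 9 spike-in controls the standard deviation between arrays was at most 0.11 on the log2 scale, and neighbouring lines closer than that are not ordered here. This spread covers hybridisation and scanning, not a second culture. Markers of duct epithelium were read as well. All 7 measured of 8 listed reached the level filter in at least 1 line, as most genes did, but they differed in the line where they were lowest. KRT7 in PANC1 was below the filter, at an intensity of 111.5. KRT19 and KRT7, keratins of simple and ductal epithelia, were at 9.84 and 7.51 in PANC1 and at 12.67 and 12.15 in HPDE, and EPCAM, an epithelial adhesion molecule, was likewise lowest in PANC1 (10.80). KRT8, KRT18, MUC1 and SOX9 were lowest in HPDE, with SOX9, a transcription factor of duct cells, at 11.36 in PANC1 and 7.92 in HPDE.

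CFTR, the cyclic AMP-regulated chloride and bicarbonate channel of the luminal membrane, was near background in all 5 lines. Its brightest probe set, 205043_at, gave 103.8 in PANC1, 142.6 in SU86.86, 128.8 in HPAF1, 99.44 in L3.6 and 103.3 in HPDE. Only SU86.86 was above the level filter, by a small margin, and SU86.86 and HPAF1 were closer than the spike-in spread. The other 5 CFTR probe sets stayed between 6.366 and 117.1 in every line, all below the filter. L3.6 was highest on 217026_at, at 117.1. The largest ratio between lines was 4.43, on 215702_s_at, where SU86.86 read 38.08 and the other lines at most 16.38.

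ANO1, the calcium-activated chloride channel also known as TMEM16A, separated the lines into those with and those without a level above background. Probe set 218804_at read 51.37 in PANC1, 806.2 in SU86.86, 1133 in HPAF1, 2878 in L3.6 and 46.7 in HPDE. L3.6, HPAF1 and SU86.86 were high, and PANC1 and HPDE lay below the level filter and were closer to each other than the spike-in spread. The second probe set, 1555269_a_at, ordered the high lines alike, with 123.8 in PANC1, 549 in SU86.86, 822.9 in HPAF1, 1777 in L3.6 and 92.21 in HPDE. The ratio of L3.6 to HPDE was 61.6 on the first probe set and 19.3 on the second. In a bulk culture, fewer cells with a transcript and less of it per cell cannot be told apart. Since HPDE lay at background these ratios depend on readings that carry little signal.

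The promoter of ANO1 is shown because this gene had the largest difference of the 9 from HPDE. The 300 bases run from 250 before to 50 after the start of the gene, RefSeq GRCh38.p14, chr11:69985657-69985956, plus strand, with each GGGCGG and its reverse complement in capitals.
ANO1: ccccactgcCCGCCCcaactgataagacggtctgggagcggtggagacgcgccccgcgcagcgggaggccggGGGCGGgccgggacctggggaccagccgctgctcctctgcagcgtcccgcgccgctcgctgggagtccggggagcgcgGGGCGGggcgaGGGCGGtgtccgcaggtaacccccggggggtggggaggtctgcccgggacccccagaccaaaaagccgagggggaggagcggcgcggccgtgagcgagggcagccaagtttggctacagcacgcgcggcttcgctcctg
This window holds 4 copies of GGGCGG, the core of a GC box, counted on both strands, and no TATAAA. It has 36 CG dinucleotides, against a median of 14 over 35116 promoter windows of the same length. GGGCGG was found in 45.0% of those windows and TATAAA in 11.5%.

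SCNN1A encodes the alpha subunit of the epithelial sodium channel. On 203453_at it read 55.93 in PANC1, 1893 in SU86.86, 3703 in HPAF1, 940.4 in L3.6 and 1252 in HPDE. PANC1 was below the level filter and the other 4 lines were well above it, in the order HPAF1, SU86.86, HPDE and L3.6. The other SCNN1A probe sets did not show this. On 215026_x_at the 5 lines lay between 355.5 and 446.5, with PANC1 at 376.3. On 217264_s_at they lay between 200.5 and 280.5, with PANC1 at 245.1, closer to HPAF1 at 227.7 than the spike-in spread. The low level of PANC1 therefore rests on 203453_at, and with the mean of the 3 probe sets the difference of PANC1 from the other lines was -1.26 in place of -3.80. The suffixes of 215026_x_at and 217264_s_at mark probes that can match other transcripts. Leaving such probe sets out keeps 203453_at alone, so the difference stayed at -3.80. The partner subunits SCNN1B and SCNN1G, which with the alpha subunit form the full channel, were below the level filter in every line. SCNN1B had log2 levels of 7.09 to 7.14 and SCNN1G of 7.0 to 7.16.

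KCNN4, the intermediate-conductance calcium-activated potassium channel, had a single probe set. It read 190.3 in PANC1, 202.9 in SU86.86, 661.1 in HPAF1, 330.9 in L3.6 and 125.8 in HPDE. HPAF1 was highest and HPDE lowest, just under the level filter, and PANC1 and SU86.86 were closer than the spike-in spread. The ratio of HPAF1 to HPDE was 5.25.

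CA2, the cytosolic carbonic anhydrase that makes bicarbonate available in duct cells, also had a single probe set. It read 378.8 in PANC1, 170.7 in SU86.86, 1077 in HPAF1, 22.45 in L3.6 and 506.9 in HPDE. L3.6 stood alone below the level filter, and HPAF1 and HPDE were the highest lines. L3.6 was thus the lowest line for CA2 and the highest for ANO1.

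SLC4A4, the basolateral sodium-bicarbonate cotransporter NBCe1, varied little. Its brightest probe set, 210739_x_at, read 224.4 in PANC1, 212.4 in SU86.86, 295.3 in HPAF1, 220.5 in L3.6 and 180.6 in HPDE. All lines were above the filter on this probe set, whose suffix marks probes that can match other transcripts. No line was above it on the other 4, which ranged from 9.665 to 131.0. PANC1 gave the 131.0, on 203908_at, where the other lines read at most 79.35. The gene cannot be called present or absent from these readings.

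ATP1B1, the beta-1 subunit that brings the sodium pump to the basolateral membrane, was bright in all lines. On 201242_s_at it read 2364 in PANC1, 6884 in SU86.86, 5459 in HPAF1, 1918 in L3.6 and 2907 in HPDE. SU86.86 and HPAF1 were the high lines. Both probe sets of ATP1B1 have a suffix that marks probes that can match other transcripts. The second, 201243_s_at, gave the same order as the first, from 6674 in SU86.86 to 1291 in L3.6. ATP1B3, another beta subunit, ran against this, with its highest log2 level in L3.6 (13.10) and its lowest in HPAF1 (12.34).

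The aquaporins of the set behaved differently from each other. AQP1, a water channel of many epithelia and of red cells that has been placed in pancreatic ducts, was below the level filter in every line on both probe sets. On 207542_s_at it read 108.9 in PANC1, 87.07 in SU86.86, 110.8 in HPAF1, 121 in L3.6 and 91.85 in HPDE, and on 209047_at it lay between 69.34 and 93.62. No line stood out. AQP3, which passes glycerol as well as water, had the widest range of the 9 genes. On 39248_at it read 156 in PANC1, 484.8 in SU86.86, 6253 in HPAF1, 15506 in L3.6 and 3365 in HPDE. L3.6, HPAF1 and HPDE were high, and the lowest line, PANC1, was close to the filter. The ratio of L3.6 to PANC1 was 99.4. The other AQP3 probe sets kept L3.6, HPAF1 and HPDE in that order but compressed the distances. On 203747_at the lines ran from 421.8 in PANC1 to 3737 in L3.6, a ratio of 8.86. On 39249_at they ran from 403.6 in SU86.86 to 4337 in L3.6, a ratio of 10.7, with PANC1 at 423.3 and not separable from SU86.86. HPDE read 669.6 and 636.4 on these probe sets.

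The promoters of the aquaporins are set side by side because one gene was among the most variable and the other was at background. Both windows have the same extent as above, RefSeq GRCh38.p14, AQP3 at chr9:33447544-33447843 on the minus strand and AQP1 at chr7:30911603-30911902 on the plus strand, with TATAAA, the letters of a TATA box, and GGGCGG and its reverse complement in capitals.
AQP3: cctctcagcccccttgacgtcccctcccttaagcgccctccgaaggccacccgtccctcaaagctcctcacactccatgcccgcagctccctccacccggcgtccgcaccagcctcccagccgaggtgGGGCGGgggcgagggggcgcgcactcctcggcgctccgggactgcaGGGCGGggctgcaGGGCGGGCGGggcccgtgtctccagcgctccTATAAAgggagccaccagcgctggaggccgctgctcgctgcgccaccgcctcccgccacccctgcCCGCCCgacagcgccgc
AQP1: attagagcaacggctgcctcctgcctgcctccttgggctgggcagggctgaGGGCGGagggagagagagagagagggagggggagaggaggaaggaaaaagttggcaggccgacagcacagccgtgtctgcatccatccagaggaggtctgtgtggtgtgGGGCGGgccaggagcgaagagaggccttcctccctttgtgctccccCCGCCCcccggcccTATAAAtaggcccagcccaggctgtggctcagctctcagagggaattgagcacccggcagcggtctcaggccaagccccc
Both windows hold 1 TATAAA, which begins 32 bases before the start in AQP3 and 30 bases before it in AQP1. AQP3 holds 5 copies of GGGCGG, a pair of them overlapping, and AQP1 holds 3. They differ in CG dinucleotides, of which AQP3 has 31 and AQP1 has 10. CCAAT (34.6% of all windows), CACCTG (20.6%), TGTTTAC (3.42%) and AACCGGTT (0.134%) were also searched on both strands and were in none of the 3 windows printed. These are letter matches and say nothing on the binding of a factor.

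**Figure D1:**
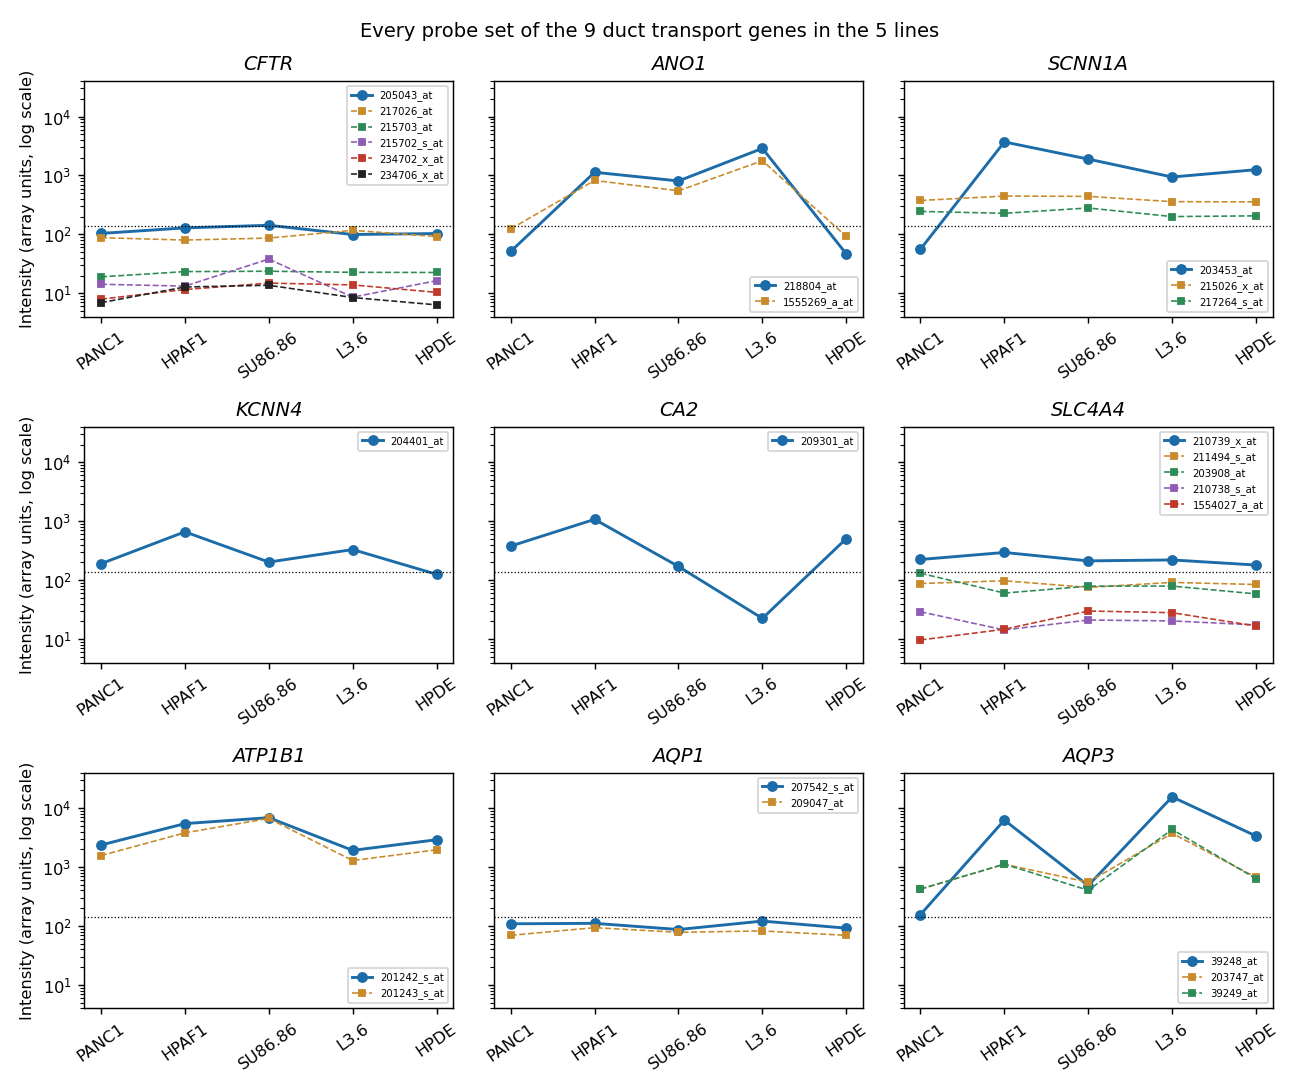
Deposited intensity (array units, log scale) of every probe set of the 9 genes in the 5 lines, 1 array per line. The solid line joins the readings of the probe set used for the gene, dashed lines the others, and the dotted line is the level filter of 140. AQP3 and ANO1 peak in L3.6 on every probe set, while SCNN1A is low in PANC1 on 203453_at alone.

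Set against all genes, 4 of the 9 had wide ranges. The range over the 5 lines was 6.10 for AQP3, 4.89 for SCNN1A, 4.65 for ANO1 and 3.62 for CA2, and the median over the 14896 genes past the level filter was 0.85. Only 0.154% of those genes had a wider range than AQP3, 0.725% than SCNN1A, 1.01% than ANO1 and 2.88% than CA2. KCNN4 (1.89) and ATP1B1 (1.81) were exceeded by 15.0% and 16.6%. SLC4A4 (0.54), CFTR (0.33) and AQP1 (0.28) were narrower than the median. All these ranges are of the probe set used for the gene. On the other SCNN1A probe sets the range was 0.28 and 0.37, below the median, and on the other AQP3 probe sets 2.95 and 3.21. The second probe set gave 3.5 for ANO1 and 2.31 for ATP1B1.

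**Figure D2:**
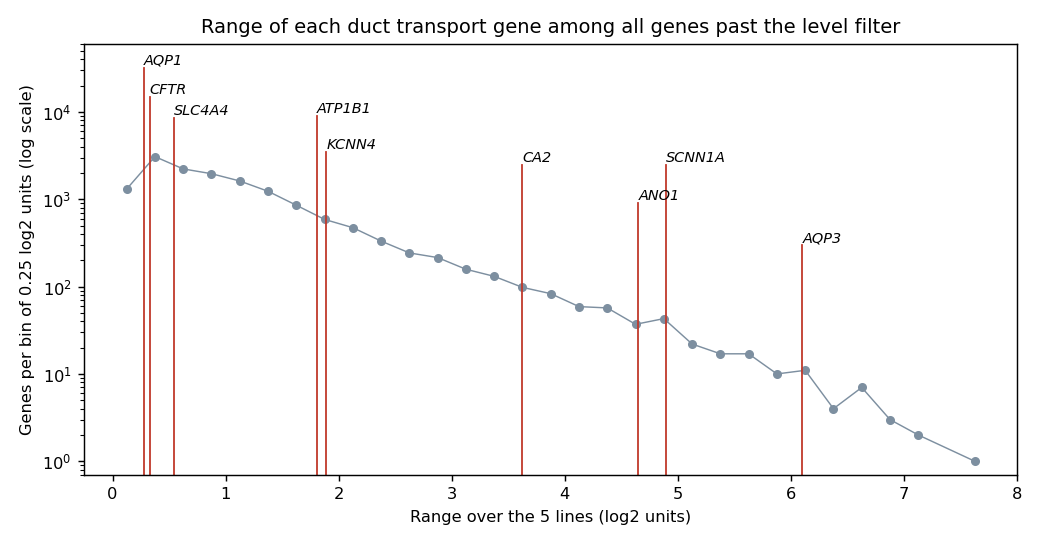
Range of log2 levels over the 5 lines for the 14896 genes past the level filter (points, genes per bin on a log scale), with the 9 transport genes marked by vertical lines whose height has no meaning (AQP1 is marked too, although it did not reach the filter). On the probe set used for each gene, AQP3, SCNN1A, ANO1 and CA2 lie in the right tail at 3.62 to 6.10. SLC4A4, CFTR and AQP1 lie below the median of 0.85.

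Each line was then compared with the mean of the other 4, a gene being counted when it was at least 2-fold higher or lower. HPAF1 had 5 of the 9 genes past 2-fold, all higher, and 13.3% of all genes were that far off in HPAF1. These were SCNN1A (2.31), CA2 (2.05), AQP3 (1.97), ANO1 (1.45) and KCNN4 (1.42). With the mean of all probe sets of a gene the count was 3, with SCNN1A at 0.83 and AQP3 at 0.88. ANO1 in HPAF1 was short of 2-fold without PANC1 (0.84) or HPDE (0.82) and at 2.37 without L3.6. Without PANC1, AQP3 was at 1.03 and SCNN1A at 1.45, and AQP3 was at 3.06 without L3.6. CA2 and KCNN4 stayed past 2-fold under every alternative. L3.6 had 4, against 7.71% of all genes, with AQP3 (3.6) and ANO1 (3.07) higher and CA2 (-2.47) and ATP1B1 (-1.04) lower. ATP1B1 in L3.6 was short of 2-fold with quantile normalization (-0.93), without HPAF1 (-0.89) and without SU86.86 (-0.78), and CA2 was at -4.27 with no added constant. PANC1 had 3, against 10.9% of all genes, all lower, AQP3 (-4.03), SCNN1A (-3.80) and ANO1 (-2.67). With the mean of all probe sets AQP3 in PANC1 was at -2.18 and SCNN1A at -1.26. SU86.86 had 3, against 7.88%, with ATP1B1 (1.22) and SCNN1A (1.13) higher and AQP3 (-2.41) lower. Leaving out probe sets that can match other transcripts removes ATP1B1, and the counts were then 2 in SU86.86 and 3 in L3.6. SCNN1A in SU86.86 was at 0.19 without PANC1 and 0.53 with probe sets averaged, both short of 2-fold, and at 1.83 without HPAF1. AQP3 was at -3.65 without PANC1 and -1.52 with probe sets averaged. With L3.6 left out, ANO1 (1.76) was higher and CA2 (-1.47) lower as well, and the count was 5. HPDE had 1, ANO1 (-2.74), against 12.0%. That count was 4 without HPAF1, where CA2 (1.42), AQP3 (1.46) and SCNN1A (1.07) were higher, 2 with PANC1, SU86.86 or L3.6 left out, and 4 with no added constant.

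A formal test of each line against the other 4 was made with limma over the 14896 genes, which takes the single line to be as variable as the 4 it is set against, so that its p-values measure the spread between different lines. Of 40 tests on the 8 genes past the level filter, 0 reached an adjusted p under 0.05. The background of this test is small too, at 0.0671% of genes called in PANC1, 0.0134% in SU86.86, 0.698% in HPAF1, 0% in L3.6 and 0.0336% in HPDE. These shares rest on few genes and on every line: the 10 genes called in PANC1 and the 2 in SU86.86 were 0 with any other line left out, the 104 in HPAF1 were 13 without PANC1, 37 without SU86.86, 0 without L3.6 and 20 without HPDE, and the 5 in HPDE were 10 without HPAF1 and 0 without any of the others. The 3 differences that were largest of the 40 beside their own standard errors are given here for their size, and none of them passed. SCNN1A was at 6.99 in PANC1 and 10.79 in the mean of the others, with a log2 difference of -3.80 (SE 0.77, limma adjusted p = 0.374). KCNN4 was at 9.52 in HPAF1 and 8.10 in the others, a difference of 1.42 (SE 0.40, limma adjusted p = 0.356). CA2 was at 6.55 in L3.6 and 9.02 in the others, a difference of -2.47 (SE 0.83, limma adjusted p = 1.0). For AQP3 and ANO1, which also differed widely among the lines on the other side of each comparison, the limma adjusted p was 0.808 or more for every line.

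Against HPDE alone, where a difference rests on a pair of arrays without replicates, no gene was at least 2-fold from HPDE in the same direction in all 4 carcinoma lines. SU86.86 had 4 of the 9 genes at least 2-fold from HPDE, against 16.2% of all genes, with ANO1 (2.90) and ATP1B1 (1.22) higher and AQP3 (-2.63) and CA2 (-1.26) lower. L3.6 had 4, against 15.1%, with ANO1 (4.65), AQP3 (2.18) and KCNN4 (1.03) higher and CA2 (-2.63) lower. HPAF1 had 3, against 17.0%, ANO1 (3.35), KCNN4 (1.89) and SCNN1A (1.51), all higher, and CA2 was just short at 0.99. With the mean of all probe sets SCNN1A in HPAF1 was at 0.63, and CA2 there was at 1.09 with no added constant and 1.13 with quantile normalization. PANC1 had 2, against 17.7%, both lower, AQP3 (-3.92) and SCNN1A (-3.38). With the mean of all probe sets these were -1.67 and -1.04, and AQP3 in SU86.86 was at -1.15. CA2 in L3.6 was at -4.50 with no added constant. ANO1 was above HPDE in HPAF1, SU86.86 and L3.6, and in PANC1 the difference was 0.06, less than the spike-in spread. With probe sets averaged the PANC1 difference was 0.16, more than that spread. On 1555269_a_at PANC1 read 123.8 and HPDE 92.21, both below the level filter. The 4 differences share the HPDE array, so they are not independent of each other. KCNN4 was above HPDE in all 4 lines, by 0.41 in PANC1 and 0.48 in SU86.86 beside the larger values given. SLC4A4 was above HPDE by 0.17 to 0.54 on 210739_x_at, the probe set used. In HPAF1 the 0.54 was 0.12 with probe sets averaged and 0.02 without probe sets that can match other transcripts. On 211494_s_at SU86.86 (75.38) and HPDE (84.45) were closer than the spike-in spread. SCNN1A, which was lower than HPDE in PANC1, was at a log2 difference of 0.57 in SU86.86 and -0.39 in L3.6.

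**Figure D3:**
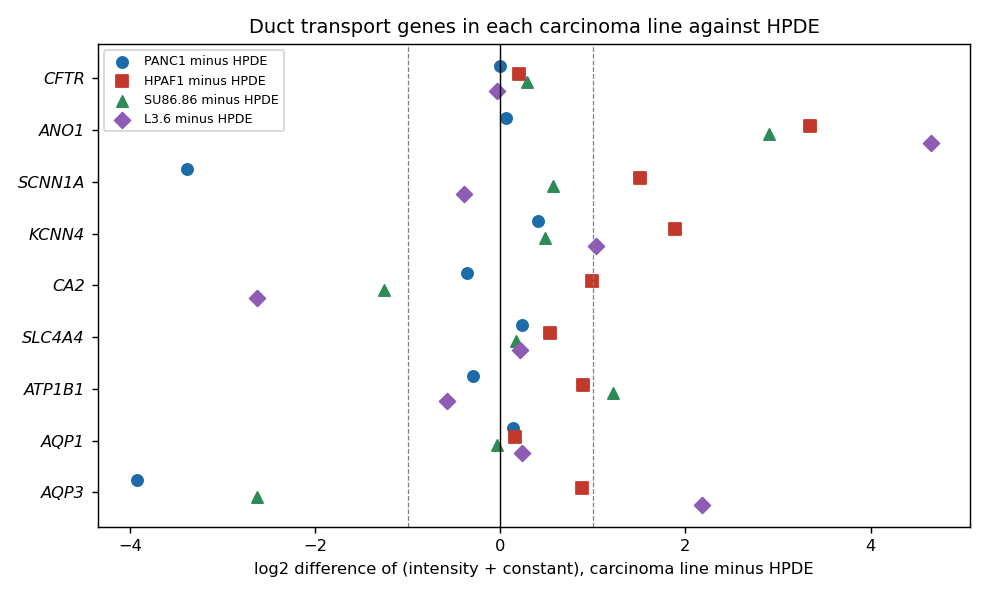
Log2 difference of each carcinoma line minus HPDE for the 9 genes, 1 array on each side, with dashed lines at 2-fold. ANO1 lies between 2.90 and 4.65 in HPAF1, SU86.86 and L3.6 and at 0.06 in PANC1, AQP3 runs from -3.92 in PANC1 to 2.18 in L3.6, and CFTR, SLC4A4 and AQP1 stay within 2-fold.

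PANC1, the line with the lowest AQP3 and SCNN1A on the probe sets used, was also the lowest line for 3 of the 7 duct markers, KRT19, KRT7 and EPCAM, and HPDE was the lowest for the other 4. The summed intensity of the 7 duct markers was 23478 in PANC1, 77681 in SU86.86, 97226 in HPAF1, 50327 in L3.6 and 27585 in HPDE. HPAF1, with the most transport genes above the other lines, had the highest sum. KRT18 was the largest term of each sum, at 13880 in PANC1 and 9520 in HPDE. AQP3 and SCNN1A were higher in HPDE than in PANC1 on the probe sets used. On the other SCNN1A probe sets HPDE was not above PANC1. The part of epithelial state in these differences was not tested. Of 22 measured markers of acinar, islet, stromal, endothelial and blood cells, 9 reached the level filter and 3 reached 4 times the median of all probe sets. The 3 were PRSS2, a trypsinogen of acinar cells, highest in SU86.86 at a log2 level of 9.85, COL1A1 at 10.05 to 10.78 and PECAM1 at 8.96 to 9.53. The acinar sum ran from 261.1 in L3.6 to 1041 in SU86.86, the islet sum from 408.8 to 529.6, the fibroblast and stellate sum from 1512 to 2297, the endothelial sum from 607.9 to 874.6 and the leukocyte sum from 252.6 to 590.7. Of the less bright markers, CHGA of endocrine cells (181.4 to 255.5), DCN of fibroblasts (173.0 to 237.0) and CD3E of T cells (143.6 to 186.8) were above the filter in all 5 lines, CD14 of monocytes reached 350.3 in HPAF1, and COL3A1 and LUM passed it in some lines. The other 13 were below the filter in all lines, among them the defining markers INS, GCG, CPA1, PNLIP, CDH5 and PTPRC.

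Genes with a like pattern were sought among all genes past the level filter, by the root mean square distance between log2 profiles centred over the 5 lines. With 5 values a near profile is easily found, and it says nothing of shared function. SCNN1A was nearest to DTX4 (distance 0.23) and to CLDN7, a claudin of tight junctions (0.30). CLDN7 stood at 8.22 in PANC1, 11.83 in SU86.86, 12.89 in HPAF1, 11.76 in L3.6 and 11.63 in HPDE. CA2 was nearest to LURAP1L (0.29) and CXXC5 (0.32). ANO1 was nearest to PTGES, a prostaglandin E synthase (0.51), and FOXA1, a forkhead factor of endoderm (0.63). AQP3 was nearest to FGFBP1, a carrier of fibroblast growth factors, at 0.54, and to ELF3, an epithelial ETS factor, at 1.01. No gene was closer than 0.5 to ANO1 or to AQP3. FGFBP1 stood at 7.16 in PANC1, 8.30 in SU86.86, 10.49 in HPAF1, 12.50 in L3.6 and 10.86 in HPDE.

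A wider list of 70 genes of epithelial ion and water transport was read for context. Of these 62 had a probe set of their own and 50 reached the level filter. In either direction the share of the 50 at least 2-fold from the other lines was 26.0% in PANC1 (10.9% of all genes), 12.0% in SU86.86 (7.88%), 32.0% in HPAF1 (13.3%), 10% in L3.6 (7.71%) and 16.0% in HPDE (12.0%), so that L3.6 and HPDE lay near the share of all genes. HPAF1 had 12 at least 2-fold above the other lines and 4 below, a median difference of 0.19 against -0.01 over all genes. The 12 include KCNE3 and AQP11, which reached the level filter through HPAF1 alone. PANC1 had 7 above and 6 below (median -0.11, against 0.00 over all genes). SU86.86 had 5 above and 1 below (0.04, against -0.06), L3.6 had 0 above and 5 below (-0.28, against 0.02), and HPDE had 3 above and 5 below (-0.23, against -0.03). The 3 of HPDE include CLCA2, which reached the filter through HPDE alone. Genes that enter the list through a single high line raise the count and share of that line by the rule of entry. The counts of L3.6 and HPDE depend on the lines compared: L3.6 had 14 genes in either direction without HPDE, 9 without SU86.86 and 8 without HPAF1, and HPDE had 14 without L3.6.

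Of 250 limma tests on the list 3 passed over all genes, all in HPAF1, where 0.698% of all genes were called. Of these, KCNE3 and AQP11 reached the level filter through HPAF1 alone, so that their calls set HPAF1 against readings not above the filter, and only their levels are given. KCNE3, an accessory subunit of epithelial potassium channels, read 59.69 in PANC1, 103.7 in SU86.86, 1184 in HPAF1, 74.23 in L3.6 and 72.85 in HPDE. Its other 2 probe sets were also highest in HPAF1, at log2 levels of 7.87 and 8.29. AQP11, an intracellular aquaporin, read 126.4 in PANC1, 105 in SU86.86, 744.9 in HPAF1, 94.49 in L3.6 and 96.95 in HPDE. HPAF1 was the high line for both genes, but the log2 difference of KCNE3 was 3.08 as computed, 1.63 with probe sets averaged and 0.84 with no added constant. With no added constant a different KCNE3 probe set had the highest mean and stood for the gene. The 0.84 is therefore not the effect of the constant on the same readings. CA12, a membrane-bound carbonic anhydrase, was above the filter in all lines and reached 11.38 in HPAF1, with 8.49 as the highest of the remaining lines, and differed by 3.08 (SE 0.22, limma adjusted p = 0.0171). On another CA12 probe set HPAF1 (8.11) and L3.6 (8.02) were not separable. The CA12 call was lost when any of the other 4 lines was left out, with differences of 3.05 to 3.15.

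The other genes of the list with the widest ranges fell into several patterns. FXYD3, a regulator of the sodium pump, was lowest in PANC1 (7.97) on its brightest probe set and at 10.11 in SU86.86, 11.79 in HPAF1, 11.06 in L3.6 and 11.96 in HPDE. On its second probe set PANC1 (8.11) and SU86.86 (8.16) were not separable. KCNK1, a potassium channel of the pore-pair family, was below the filter in PANC1 (7.23) and between 10.14 and 10.97 in the other lines. PRSS8, the protease prostasin that activates the epithelial sodium channel, was below the filter in PANC1 (7.01) and L3.6 (7.09) and at 10.22 in HPAF1, 8.78 in SU86.86 and 10.31 in HPDE. PANC1 was instead the highest line for SLC26A2, a sulfate and chloride exchanger (11.79, against 8.92 to 9.99 in the others), and for SLC4A11, a borate-transporter relative of the SLC4 family (10.99, against 8.28 to 9.58). SGK1, a kinase that raises sodium channel number at the membrane, was highest in SU86.86 (11.31) and PANC1 (10.78) and lowest in HPAF1 (8.38). For none of these 6 genes did any line pass limma.

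**Figure D4:**
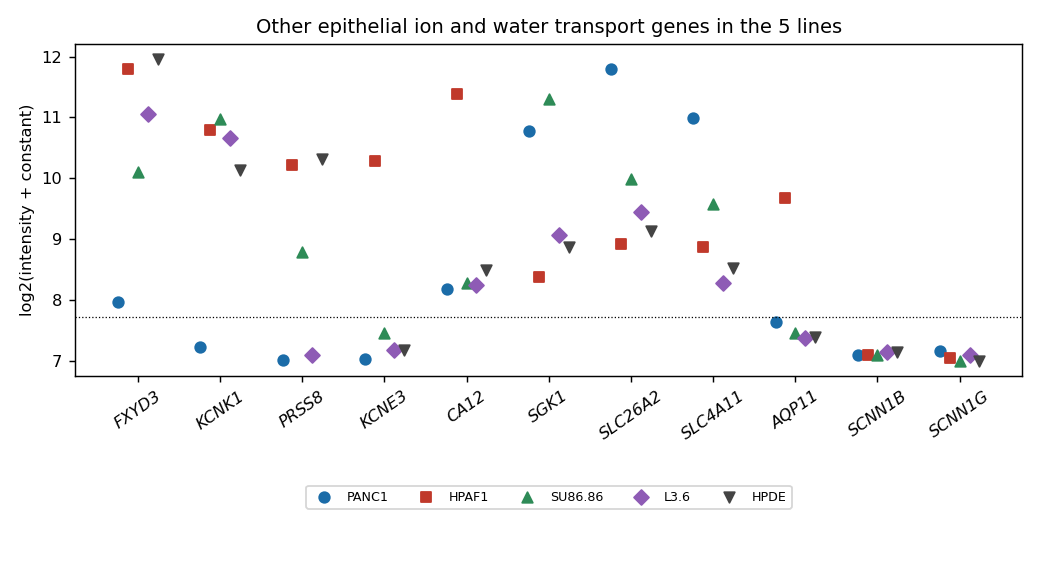
Log2 levels in the 5 lines of the 8 genes of the wider transport list with the widest ranges, then AQP11, SCNN1B and SCNN1G, 1 array per line, with the level filter dotted. KCNE3, CA12 and AQP11 are high in HPAF1 alone, FXYD3 and KCNK1 are lowest in PANC1, PRSS8 is low in PANC1 and L3.6, and SCNN1B and SCNN1G lie at 7.0 to 7.16 in all lines.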

How the data were processed

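Total RNA of each line was labelled with biotin and hybridised to a 1-colour Affymetrix array, per the labels' protocols. The deposited values are linear intensities for 54675 probe sets per array. The summarisation, scaling and background correction behind the authors' intensities are not stated there. The log2 medians of the arrays differed by 0.04, and no further normalization was applied.

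Values were transformed as log2(intensity + 71.1), the constant being the 25th percentile of all values. Probe sets were named through the platform annotation and RefSeq GRCh38.p14 (41037 of 41091 with 1 symbol matched). Probe sets with several symbols (1801) and the 62 control probe sets of the maker were left out. The probe set with the highest mean log2 level stood for its gene, and 14896 of 19775 genes reached the level filter, the median of all probe sets. Each line was compared with the other 4 in limma 3.58.1 (R 4.3.3) with a mean-variance trend, 3 residual degrees of freedom, two-sided tests and Benjamini-Hochberg adjustment over these genes, and the code was tested on simulated data. Comparisons with HPDE have no test.

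The members, the lists and the tests were chosen with earlier results of these data known. Named genes were the 9 members, the 8 genes of the wider list with the widest range, partner subunits of members, the 2 nearest profiles of each member with a range of 2 or more, and KRT19, KRT7 and bright markers of other cell types. ATP1B3, AQP11, the other markers and the receptors among the additional observations were named after their values were seen. With 1 array per line, the number of arrays sets the precision. Alternatives were no added constant, quantile normalization, no or a stricter level filter, the mean of all probe sets, leaving out probe sets that are not specific to a transcript (suffixes _s_at, _x_at and _a_at), and leaving out each line.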

Additional observations from a re-analysis of the deposited data

How the results depend on the processing

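Of the counts of genes at least 2-fold apart or past limma, 12 recomputed values moved by more than 1.5 times and 162 did not. The 162 include the limma counts of the members, which were 0 as reported and under every alternative. They also include the counts with no level filter, a setting that moved no value. The 162 is therefore not a measure of how stable the counts are. The count of the 9 transport genes in HPAF1 was 3 when probe sets were averaged, and that in HPDE was 4 with no added constant. With each line left out in turn it was 3 in PANC1 throughout, 4 to 6 in HPAF1, 2 to 5 in SU86.86, 3 to 5 in L3.6 and 2 to 4 in HPDE. The count of the wider list in L3.6 was 8 with no added constant. With each line left out it was 12 to 15 in PANC1, 14 to 18 in HPAF1, 7 to 8 in SU86.86, 7 to 14 in L3.6 and 8 to 14 in HPDE. The cause of these shifts was not tested. The counts against HPDE moved by no more than 1.5 times under the 6 alternatives run on them. Among 699 recomputed differences of single genes, a change of sign was counted only where the difference had been 2-fold or more. That count was 0, and smaller differences could not enter it. Some of the smaller ones did change sign. CA2 in PANC1 went from 0.36 to -0.27 without L3.6, and SCNN1A in HPDE from 0.42 to -0.56 without PANC1. No member passed limma under any alternative run. No paired analysis was possible because each line has 1 array. Readings near background, as for CFTR, AQP1 and SLC4A4, carry little signal.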

Other observations

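Receptors that start duct secretion were also read, and were picked with their values in view. SCTR, the receptor for secretin, was close to the level filter in all lines, at a log2 level of 7.75 in PANC1, 7.83 in SU86.86, 7.89 in HPAF1, 7.85 in L3.6 and 7.81 in HPDE. Neighbouring lines are closer than the spike-in spread. ADORA2B, an adenosine receptor coupled to cyclic AMP, was at 11.56 in PANC1, 10.82 in SU86.86, 9.41 in HPAF1, 11.24 in L3.6 and 9.49 in HPDE, with HPAF1 and HPDE the low lines. P2RY2, a nucleotide receptor that raises cell calcium, was at 7.51 in PANC1, 8.61 in SU86.86, 9.27 in HPAF1, 8.92 in L3.6 and 7.55 in HPDE. Its lines above the level filter, HPAF1, SU86.86 and L3.6, are the same that were high for ANO1, the calcium-activated channel, and PANC1 and HPDE were below the filter for both genes. With 5 lines this is a description of these arrays.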
